A study of Mus musculus with 46 samples.

Results

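Microglia sorted from the hippocampus were compared with microglia sorted from whole brain, both at steady state. The comparison joined 2 deposited tables by gene symbol and used 11 of the 46 libraries in the series, 5 hippocampal and 6 whole-brain. The libraries were chosen by their labels alone, and genotype was a covariate. Region and table cannot be told apart, because every hippocampal library stands in the one table and every whole-brain library in the other.

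Control mice were labelled Cx3cr1CreER:Dicer+/- and Dicer-deficient mice Cx3cr1CreER:Dicerfl/-, and all were 10 to 12 weeks old. The hippocampal table gave 2 controls (numbered 1 and 2) and 3 Dicer-deficient libraries (4, 5 and 6), and the whole-brain table gave 3 controls (7, 8 and 9) and 3 Dicer-deficient libraries (5, 11b and 12). Both genotypes carry Cx3cr1CreER, a Cre recombinase under the promoter of Cx3cr1 that tamoxifen activates, and 1 Dicer allele that is not intact, so neither is a wild type. The cells were sorted as CD45intCD11b+F4/80+Ly6C-Ly6G-. The labels of the whole-brain libraries also say PBS, and the design text of the series gives both adult genotypes the same string, Dicer+/-. Sex, the number of mice per library and the day of each sort are not given in the sources used here, so p-values speak only of the spread among libraries.

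Microglia are the macrophages that live inside the brain tissue, and they keep a shared identity through genes such as P2ry12, Tmem119 and Sall1. In the mouse brain they differ somewhat by region, and most of them carry little MHC class II, the complex that shows peptides to helper T cells. Macrophages at the borders of the brain, in the meninges, around vessels and in the choroid plexus, carry more MHC class II and Apoe, a lipid-carrying protein, and are marked by Mrc1, Lyve1, Pf4 and F13a1.

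Each library held 2244169 to 4143142 reads as recovered from the deposited values, where the common step of a library's values was taken as 1 read. The hippocampal libraries detected 10203 to 11630 genes and the whole-brain libraries 12104 to 12492, so the ranges did not overlap at like recovered totals. Libraries of the same hippocampal group also differed more, with a median absolute log2 difference per gene of 0.50 to 0.59 against 0.23 to 0.43 in whole brain. Hippocampal control 1 and whole-brain Dicer-deficient 11b held almost none of the Y-linked Ddx3y (2.64 and 6.11), unlike the other libraries of their groups. With only 2 hippocampal controls, neither can be called the outlier, and this pair lay at the lower end of the hippocampal range (0.50). Xist, the X-inactivation RNA, was at 1376 normalised reads in hippocampal control 1 and 563 in whole-brain 11b, and Cx3cr1 was at 662 in the first against 2413 to 6934 in the other 10. The 3 hippocampal Dicer-deficient libraries held both Xist (617 to 676) and the Y-linked Ddx3y (177 to 204), while the remaining libraries held Ddx3y at 257 to 459 and Xist at no more than 3.80. Xist was also among the 302 genes called below. The part of sex in the region differences was not tested.

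Dicer1 itself, the gene targeted in the mutant, was at 89.1 and 41.8 normalised reads in the hippocampal controls and 17.5, 32.2 and 60.3 in the hippocampal Dicer-deficient libraries. In whole brain it was at 121, 96.1 and 126 in controls and 72.5, 73.7 and 104 in Dicer-deficient microglia. In each region the highest Dicer-deficient library lay above the lowest control, and the region difference did not pass the test (-1.12, limma adjusted p = 0.085). Whether the counted reads lie in the deleted exons is not given in the sources used here, so these values do not check the genotype.

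All levels below are normalised reads, rescaled over the 11 libraries together by median of ratios (factors 1.01 to 1.05). Differences are log2(hippocampus/whole brain) ± SE from limma on log2(level + 1) with genotype as a covariate, and a gene was called at a Benjamini-Hochberg adjusted p under 0.05. Of 11562 genes tested, 302 were called, or 2.61% of them. In hippocampal microglia 138 were higher (1.19%) and 164 lower (1.42%), and 64 (0.554%) and 100 (0.865%) of these differed at least 2-fold, 1.42% of genes together. The median difference over all genes tested was -0.12. In 404 genes (3.49%) no hippocampal library overlapped a whole-brain library, 169 of them higher (1.46%) and 235 lower (2.03%), and 184 of the called genes were among them. Among the 164 lower genes, 46 had a mean level under 20, and 19 were at 0 in all 5 hippocampal libraries, where no fold can be given. Of all genes tested, 57 were at 0 in all 5 hippocampal libraries and 1 was at 0 in all 6 whole-brain libraries. With hippocampal control 1 and whole-brain 11b both left out, 487 genes were called, 221 of them among the 302.

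**Figure D1:**
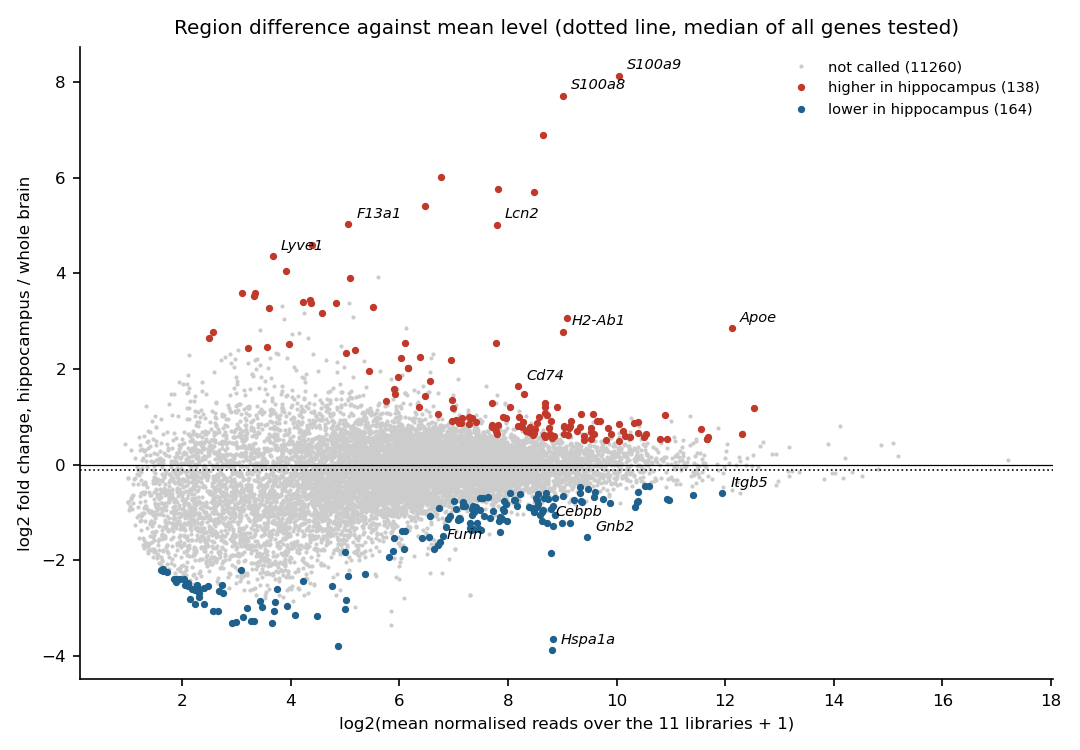
Log2 difference between hippocampal and whole-brain microglia (vertical axis) against log2 of the mean level over the 11 libraries plus 1 (horizontal axis), 1 point per gene tested. Red points are the 138 genes called higher and blue points the 164 called lower in hippocampus; S100a9 and S100a8 lie highest, Apoe stands out to the right at 2.85, and many blue points at the left edge are genes with a mean level under 20.

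Classical MHC class II genes were higher in hippocampal microglia over both genotypes. In controls alone only H2-Ab1 of these passed the test, and H2-Aa (2.85) and H2-Eb1 (2.27) had limma adjusted p of 0.058 and 0.052. H2-Ab1, the beta chain of the I-A molecule, was at 523 and 1069 in hippocampal controls and 1052, 1188 and 1010 in hippocampal Dicer-deficient microglia. In whole brain it was at 201, 117 and 113 in controls and 174, 90.0 and 134 in Dicer-deficient microglia. Every hippocampal library was above every whole-brain library, by 2.78 ± 0.23 (adjusted p = 1.5e-05, limma with Benjamini-Hochberg adjustment). H2-Aa, which encodes the matching alpha chain, was at 393 and 1212 in controls and 1052, 1092 and 1482 in Dicer-deficient hippocampal microglia. Its whole-brain levels were 264, 67.2 and 48.1, and 160, 122 and 97.6, again with no overlap (3.07 ± 0.37, limma adjusted p = 0.00054). H2-Eb1, the beta chain of the I-E molecule, was at 200 to 568 in hippocampus and 36.1 to 109 in whole brain (2.54 ± 0.29, limma adjusted p = 0.00033). Hippocampal control 1 was the lowest hippocampal library for all 3 genes. Without it and whole-brain 11b the differences were 2.86, 3.40 and 2.41, all called.

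Of 13 MHC class II presentation genes tested, 4 were higher (30.8%, against 1.19% of all genes) and 0 lower, with a median difference of 0.39. The fourth was Cd74, the invariant chain that escorts class II molecules (1.64 ± 0.21), which reached 185 to 647 in hippocampus and 65.6 to 210 in whole brain. It was named after its values were seen. The genes that load and edit peptides did not pass the test: H2-DMa differed by 0.26, H2-DMb1 by 0.15 and H2-Oa by 0.39. Ciita, the master activator of class II transcription, was at no more than 3.24 in any library and was not tested. Of 19 MHC class I presentation genes tested, 0 were higher and 1 lower (5.26%, against 1.42% of all genes). This was Tapbp (-0.44 ± 0.11, limma adjusted p = 0.049), a chaperone of peptide loading, which lost its call without any 1 of 9 of the 11 libraries. B2m, the light chain of class I, was at 5339 to 7487 in hippocampus and 2392 to 6146 in whole brain (0.68, limma adjusted p = 0.072).

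The 150 bases before the RefSeq start of both class II genes with an entry (build GRCm38.p6) are shown because these genes moved together. Capitals mark the letters TGACGTCA, a cyclic AMP response element, and CCAAT or its reverse complement ATTGG; class II promoters are known to combine an X box, which can hold such an element, with a Y box, which holds an inverted CCAAT. The H2-Aa stretch is at chr17:34287824-34287973 on the minus strand, with TGACGTCA from 74 to 67 and ATTGG from 48 to 44 bases before the start. The H2-Eb1 stretch is at chr17:34305717-34305866 on the plus strand, with ATTGG from 59 to 55 and CCAAT from 35 to 31 bases before the start.
H2-Aa: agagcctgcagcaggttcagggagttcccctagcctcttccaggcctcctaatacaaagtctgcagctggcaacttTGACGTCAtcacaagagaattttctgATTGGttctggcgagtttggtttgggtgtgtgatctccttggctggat
H2-Eb1: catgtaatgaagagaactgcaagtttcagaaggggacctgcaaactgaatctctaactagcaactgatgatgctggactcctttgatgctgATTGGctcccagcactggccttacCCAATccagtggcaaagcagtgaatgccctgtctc
These matches are descriptions of letters. On either strand, TGACGTCA stood in 1.79% and CCAAT in 37.4% of all 32851 promoter windows of 300 bases. Of the 138 genes higher in hippocampus, 103 matched a window, under the 80% needed, so a comparison of their shares is void. CCAAT was added to the search after the values were seen.

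Apoe, the lipid carrier, was higher at high abundance. It was at 6832 and 6920 in hippocampal controls and 7266, 9091 and 9931 in hippocampal Dicer-deficient microglia. In whole brain it was at 3070, 2133 and 1755 in controls and 676, 520 and 620 in Dicer-deficient microglia. No hippocampal library overlapped a whole-brain library (2.85 ± 0.31, limma adjusted p = 0.00025). The region difference was 1.61 ± 0.23 in controls and 3.85 ± 0.20 in Dicer-deficient microglia, and Apoe was the single gene called for the difference between them (2.24, limma adjusted p = 0.035). That call was lost with a pseudocount of 0.1, without a filter, with library weights, with GC and length trends removed and without any 1 of 9 of the 11 libraries, all but hippocampal Dicer-deficient 4 and whole-brain control 9 (adjusted p 0.050 to 0.173), while the difference stayed between 2.02 and 2.42.

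Apoe also belongs to a list of 26 tested genes of disease-associated and amoeboid microglia. Of these, 6 were higher (23.1%, against 1.19% of all genes) and 0 lower (median 0.49). Clec7a, a receptor for fungal glucans, was at 150 and 163 in hippocampal controls and 66.0 to 80.8 in Dicer-deficient microglia, against 32.5 to 75.5 and 8.15 to 12.9 in whole brain (2.23 ± 0.35, limma adjusted p = 0.0039). Both regions ran lower in the Dicer-deficient libraries, and the 2 regions overlapped only across genotypes. Lyz2, the macrophage lysozyme, was at 450 to 706 in hippocampus and 177 to 356 in whole brain (1.08 ± 0.18, limma adjusted p = 0.0054). Ch25h, which makes an antiviral oxysterol, was at 11.2 to 69.9 against 1.62 to 5.51 (2.53 ± 0.57, limma adjusted p = 0.03). The 2 other higher genes, named after their values were seen, were Cd52 (0.87) and the galectin Lgals3 (1.97). Ch25h lost its call without any 1 of 6 libraries, whole-brain Dicer-deficient 5 and 12 among them, and Clec7a without the genotype term. With GC and length trends removed, 4 of the 26 were higher.

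**Figure D2:**
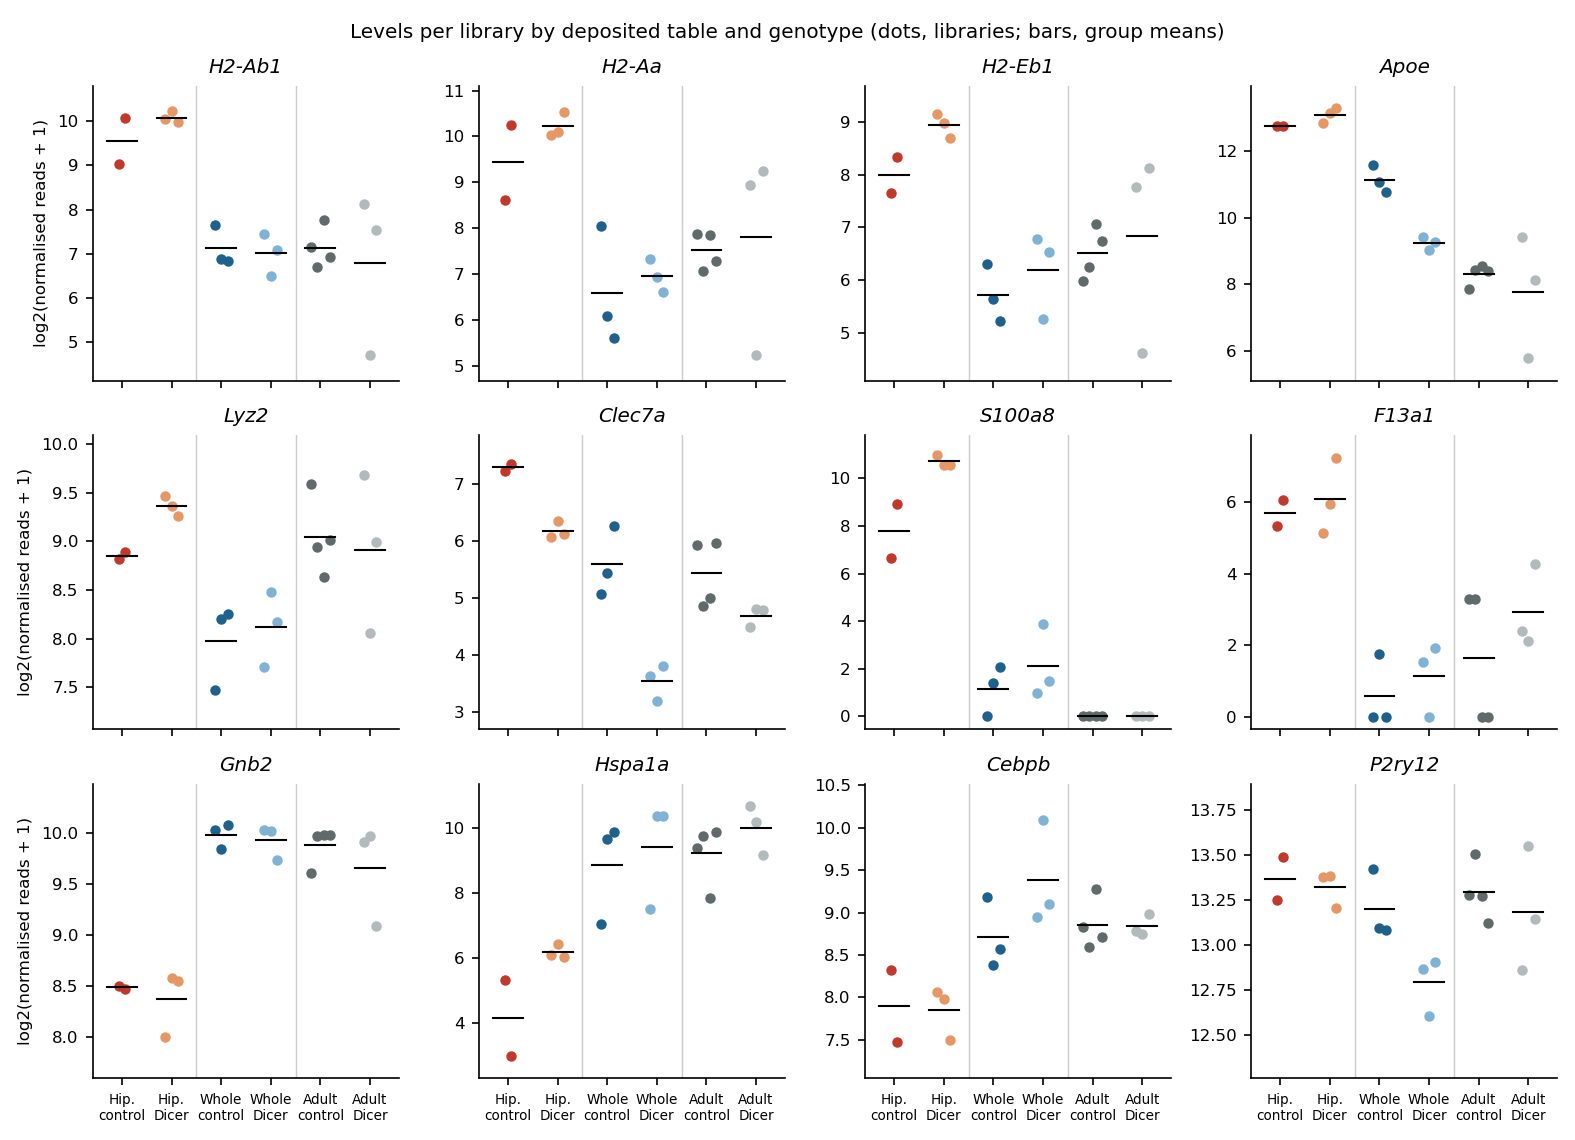
Levels of 12 genes as log2(normalised reads + 1), 1 dot per library and a bar at each group mean, for the hippocampal, whole-brain and adult tables; the vertical axes differ between panels and do not start at 0. H2-Ab1, H2-Aa, H2-Eb1 and Apoe stand higher in all 5 hippocampal libraries than in all 6 whole-brain libraries, Gnb2, Hspa1a and Cebpb stand lower, and P2ry12 overlaps.

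Markers of other myeloid cells moved with these genes. Of 15 border macrophage markers, 12 reached the filter on low values, 5 of them only with the hippocampal libraries, where they are high and so had to differ. Those 5 were F13a1, Lyve1, Ms4a7, Cd163 and Folr2, and their tests cannot show a difference apart from the filter. Of them, F13a1, Lyve1 and Ms4a7 were called higher, and so were 3 of the other 7. F13a1, a coagulation factor subunit, was at 39.6 and 65.4 in hippocampal controls and 34.0, 60.8 and 149 in Dicer-deficient microglia, and at 0 to 2.80 in whole brain (5.02 ± 0.63, limma adjusted p = 0.00077, and 3.42 to 6.84 over the settings tried). Lyve1, a hyaluronan receptor, was at 2.43 to 40.2 in hippocampus and at 0 in all 6 whole-brain libraries. Pf4, platelet factor 4, was at 20.5 to 94.9 against 0.679 to 6.55 (3.90 ± 0.57, limma adjusted p = 0.0022). The mannose receptor Mrc1 (3.30), Ms4a7 (3.40) and Cbr2 (3.38) were the others, named after their values were seen. The summed level of the 15 listed markers was 1714 to 2646 in hippocampus and 970 to 1820 in whole brain, most of it from Stab1 (1054 to 1543 against 697 to 1242), and none was at 0 in all 11 libraries. Without hippocampal control 1 and whole-brain 11b, 3 of 10 tested were called.

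Genes of neutrophil granules and cytosol, S100a9, S100a8 and Ngp, had the 3 largest differences of all called genes. S100a8, an antimicrobial calcium-binding protein, was at 99.6 and 483 in hippocampal controls and 2014, 1526 and 1521 in hippocampal Dicer-deficient microglia. In whole brain it was at 0, 1.62 and 3.24, and 0.977, 13.7 and 1.84 (7.72 ± 0.63, limma adjusted p = 1.5e-05). Its partner S100a9 was at 207 to 3345 against 0 to 106 (8.13 ± 0.81, limma adjusted p = 7.4e-05). Within hippocampus the 2 controls were the lowest libraries for both genes, and within whole brain 11b was the highest. Of 17 neutrophil markers, 8 reached the filter and 6 of these were higher, against 138 of all 11562 genes tested. S100a8, S100a9, Ngp (6.90), Ltf (5.42) and Camp (5.76) reached it only with the hippocampal libraries and so had to differ. Lcn2 (5.02) was the other higher gene. Csf3r and Cxcr2 were not called, and Cxcr2 reached the filter only with the whole-brain libraries. Camp and Cxcr2 were named after their values were seen.

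The summed level of the 17 neutrophil markers was 1511 to 9198 in hippocampus and 955 to 1311 in whole brain. Csf3r, a receptor that microglia express as well, made most of the whole-brain sum (792 to 1296) and did not pass the test (-0.14). Elane and 3 others were at 0 in all 11 libraries, and Ly6g, the antigen used to gate neutrophils out, was at 3.04 in 1 hippocampal library and 0 in the other 10. Of 11 tested genes listed as monocyte markers, 4 were higher (36.4%, against 1.19% of all genes). Chil3 (6.01), Ly6c2 (4.59) and Cd177 (3.59) reached the filter only with the hippocampal libraries, and Hp (2.41) was the other. Ccr2, Ace and Nr4a1 of the same list reached it only with the whole-brain libraries and were not called. Whether these 4 calls are separate from the neutrophil ones was not tested. Hp lost its call without whole-brain Dicer-deficient 5 or 12, and Cd177 with edgeR, its difference running from 1.87 to 6.27 over the settings tried. Ly6c2 was at 15.5 to 92.4 in hippocampus and 0 to 2.72 in whole brain, and the summed level of the 14 markers was 184 to 884 against 54.2 to 115. In bulk RNA, fewer cells of a type and less RNA per cell cannot be told apart. The part of border macrophages, neutrophils and monocytes in the MHC class II and Apoe differences was not tested.

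Among markers of non-myeloid cells, only vessel genes were called over both genotypes and all 11 libraries in the 4 lists described here. Of 8 erythroid markers tested, 0 were called, with a median of -2.37 and summed levels of 59.4 to 394 in hippocampus and 157 to 3494 in whole brain. In controls alone 4 of 10 tested were lower, against 13 of 13090 genes (0.0993%). Without whole-brain 11b, 5 of the 8 were lower, against 176 of 11370 genes. With hippocampal control 1 also left out, the list median was -2.81. Of 8 endothelial and mural markers tested, 3 were lower (37.5%, against 1.42% of all genes), Pecam1 (-3.02), Vwf (-2.63) and Cdh5 (-2.40), and these 3 reached the filter on low values only with the whole-brain libraries. Over the settings tried Vwf ran from -5.19 to -1.14 and Cdh5 reached -4.95, since log2 differences of genes near 0 move with the pseudocount. Pecam1 was at 0 to 22.7 against 16.5 to 89.7, and none of the 3 stayed called with hippocampal control 1 and whole-brain 11b both left out. Of 3 neuron and 3 hippocampal neuron markers tested, 0 were called, and 7 of 13 hippocampal neuron markers were at 0 in all 11 libraries, Neurod6 and Fibcd1 among them.

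Of 30 homeostatic genes of microglia tested, 1 was called (3.33%, near the 2.61% of all genes), with a median difference of 0.10, and their summed level was 303387 to 345186 in hippocampus and 288362 to 344196 in whole brain. P2ry12, a purine receptor, was at 9452 to 11471 in hippocampus and 6247 to 10947 in whole brain (0.37, limma adjusted p = 0.14). Tmem119 differed by -0.14, Csf1r by -0.08, Sall1 by -0.31, Fcrls by -0.21 and Siglech by 0.21, none of them called. The exception was Lag3, an inhibitory receptor, at 762 and 1080 in hippocampal controls and 551, 340 and 761 in whole-brain controls. In Dicer-deficient microglia it was at 281, 243 and 267 in hippocampus and 87.6, 140 and 111 in whole brain. The regions overlapped only across genotypes (1.04 ± 0.21, limma adjusted p = 0.015), and the call was lost without whole-brain Dicer-deficient 5, with library weights or without the genotype term.

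The 12 largest positive differences among called genes without overlap and with a mean level of at least the median also included Fgl2, a secreted fibrinogen-like protein (2.26 ± 0.44), the proton-sensing receptor Gpr65 (2.19 ± 0.48) and the nuclear RNA Neat1 (1.48 ± 0.20). The translation factor subunit Eif3e (1.35 ± 0.28) and the antiviral protease Fam111a (1.28 ± 0.27) completed the 12. Neat1 was at 588 and 558, and 559, 331 and 363 in hippocampus, against 149, 193 and 243, and 170, 106 and 196 in whole brain. Gpr65 was at 95.7 and 73.0 in hippocampal controls and 248, 355 and 318 in Dicer-deficient microglia, against 14.2 to 69.6 in whole brain. Its controls lay only just above whole-brain control 7, and the call was lost without hippocampal Dicer-deficient 5 or 6 or whole-brain Dicer-deficient 5 or 12. Eif3e lost its call without whole-brain Dicer-deficient 5.

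On the other side, Gnb2, a beta subunit of heterotrimeric G proteins, was lower in every hippocampal library. It was at 362 and 354 in hippocampal controls and 256, 381 and 375 in Dicer-deficient microglia. In whole brain it was at 1040, 919 and 1078, and 1041, 1036 and 851. The ranges lay far apart (-1.52 ± 0.14, limma adjusted p = 2.1e-05), and the difference was -1.49 in controls and -1.55 in Dicer-deficient microglia. Phc2, a Polycomb subunit, was at 77.5 to 125 in hippocampus and 217 to 278 in whole brain (-1.35 ± 0.18, limma adjusted p = 0.0011). Ncstn, a subunit of gamma-secretase, was at 79.8 to 111 against 180 to 371 (-1.37 ± 0.19, limma adjusted p = 0.0014). Furin, a proprotein convertase (-1.68), the lysosomal cystine transporter Ctns (-1.30), the RNA methyltransferase Nsun5 (-1.51), the scaffold attachment factor Safb (-1.49), the trafficking subunit Trappc3 (-1.33), Sfi1 (-1.76), Dolpp1 (-1.53) and Pcnxl3 (-1.34) completed the group with the heat shock gene Hspa1a. Nsun5, Safb, Dolpp1 and Trappc3 lost their calls without any 1 of 8, 6, 5 and 3 libraries, in each case including whole-brain Dicer-deficient 5 and 12.

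Hspa1a, which encodes inducible Hsp70, was at 38.9 and 6.84 in hippocampal controls and 67.0, 84.5 and 64.3 in Dicer-deficient microglia. In whole brain it was at 131, 805 and 929, and 178, 1313 and 1314 (-3.88 ± 0.61, limma adjusted p = 0.0035). Whole-brain control 7 and Dicer-deficient 5 were the lowest whole-brain libraries but still above all hippocampal ones. Hspa1b, its neighbouring copy, was at 1.98 to 154 against 121 to 1394 (-3.64 ± 0.71, limma adjusted p = 0.014), with overlap. Reads of these near-identical copies can be shared between them, so neither value is certain on its own. The RefSeq stretches of 150 bases before their starts (GRCm38.p6) are shown because they are nearly the same sequence, with 149 of 150 bases identical. Both are on the minus strand, Hspa1a at chr17:34972157-34972306 and Hspa1b at chr17:34959239-34959388, and capitals again mark ATTGG, from 67 to 63 bases before the start.
Hspa1a: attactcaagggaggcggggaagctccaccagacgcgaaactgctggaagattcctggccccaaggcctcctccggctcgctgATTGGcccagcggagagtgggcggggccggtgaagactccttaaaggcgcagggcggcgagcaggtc
Hspa1b: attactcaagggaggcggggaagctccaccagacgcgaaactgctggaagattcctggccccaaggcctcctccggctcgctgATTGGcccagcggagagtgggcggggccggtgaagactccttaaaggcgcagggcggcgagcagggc
Of 16 heat shock genes tested, 3 were called (18.8%, against 2.61% of all genes). Hspa1a and Hspa1b were lower and 1 was higher, the chaperone of the endoplasmic reticulum Hspa5 (0.58 ± 0.11, limma adjusted p = 0.012), at 1389 to 2105 against 942 to 1429. The list median was -0.30, and Hspa1b and Hspa5 lost their calls without the genotype term. Of 25 immediate early and dissociation-induced genes tested, 0 were higher and 1 lower (4.0%, against 1.42% of all genes), with a median of -0.15. This was the small GTPase Rhob (-0.74 ± 0.14, limma adjusted p = 0.012).

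Of 20 myeloid transcription factors tested, 0 were higher and 2 lower (10.0%, against 1.42% of all genes), with a median of -0.26. Cebpa, which directs myeloid differentiation, was at 221 and 193, and 222, 203 and 338 in hippocampus, against 476, 405 and 400, and 412, 611 and 446 in whole brain (-0.99 ± 0.17, limma adjusted p = 0.0055). Cebpb, its relative in inflammatory gene control, was at 177 to 319 against 334 to 1088 (-1.21 ± 0.25, limma adjusted p = 0.017). The regions did not overlap for either gene. Of 30 genes of Toll-like receptors and NF-kB, 2 were lower (6.67%, against 1.42% of all genes). They were Nfkb1 (-0.61) and the inhibitor Nfkbia (-0.81), and both overlapped between regions. Cebpb lost its call without hippocampal control 2 and with library weights, and Nfkb1 and Nfkbia without any 1 of 8 and 9 libraries.

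Among secreted signals the called genes were higher. Of 26 cytokines and chemokines tested, 3 were higher (11.5%, against 1.19% of all genes) and 0 lower (median 0.79). Tgfb1, the cytokine that maintains microglial identity, was at 784 to 1190 in hippocampus and 482 to 679 in whole brain (0.69 ± 0.14, limma adjusted p = 0.015), without overlap. The chemokines Ccl7 (3.53 ± 0.66) and Cxcl9 (3.44 ± 0.79) came from low levels and, with Ifi203 below, reached the filter only with the hippocampal libraries. They were at 7.29 to 28.9 and 5.63 to 90.7 in hippocampus against at most 2.72 and 5.62 in whole brain. Of 38 interferon-stimulated genes tested, 2 were higher (5.26%, against 1.19% of all genes) and 0 lower (median 0.46). They were Bst2, which tethers budding virus, at 573 to 778 against 194 to 567 (1.21 ± 0.23, limma adjusted p = 0.012), and Ifi203 (3.27). Of 15 complement genes, 2 were higher (13.3%, against 1.19% of all genes), the C3a receptor C3ar1 (0.65 ± 0.14) and Cd59a (2.45 ± 0.60). Tgfb1 lost its call without whole-brain Dicer-deficient 5, Ccl7 with edgeR, and Cxcl9, Ifi203, C3ar1 and Cd59a without any 1 of 6, 5, 4 and 8 libraries.

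Receptors for contact and uptake were called in both directions. Of 27 adhesion and guidance receptors tested, 3 were called (11.1%, against 2.61% of all genes): Itga4 was higher (2.44), a member that reached the filter only with the hippocampal libraries, and Itgb5 (-0.60) and Sema4d (-0.99) were lower. Itgb5, an integrin that binds vitronectin, was at 2534 to 3576 in hippocampus and 3715 to 5418 in whole brain. Of 19 phagocytic and efferocytosis receptors, 0 were higher and 2 lower, Itgb5 again and the lipoprotein receptor Scarb1 (-1.23). Single genes were lower among 33 lysosome genes (3.03%), the cholesterol transporter Npc1 (-0.75), and 22 p53 targets (4.55%), Ddit4 (-1.86), against 1.42% of all genes. Itga4, Scarb1, Npc1 and Ddit4 lost their calls without any 1 of 10, 8, 8 and 9 libraries, and Itgb5 without the genotype term. No member was called among 25 glycolysis, 8 Fc receptor, 34 cell division, 16 microRNA machinery, 13 purinergic and 7 Siglec genes tested.

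**Figure D3:**
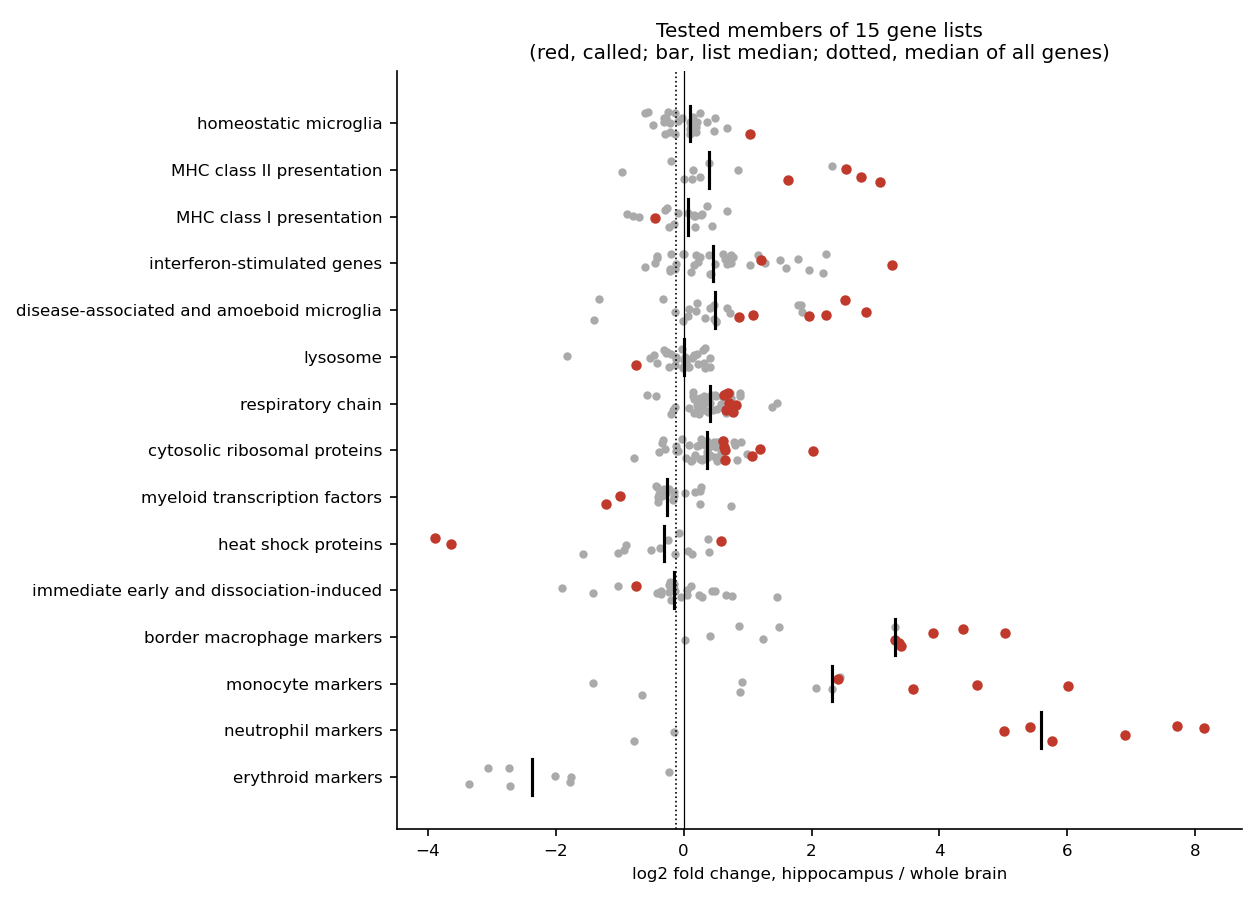
Log2 difference between hippocampal and whole-brain microglia for the tested members of 15 gene lists, 1 dot per gene; red dots were called, black bars are list medians and the dotted line is the median of all genes tested (-0.12). Called neutrophil, monocyte and border macrophage markers lie farthest to the right, and in each of these 3 lists 5 tested members reached the filter only with the hippocampal libraries; homeostatic genes lie near 0.

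Some genes of energy metabolism and translation were higher by small amounts. Of 45 respiratory chain genes tested, 6 were higher (13.3%, against 1.19% of all genes) and 0 lower. The difference was positive in 40, against 4828 of all 11562 genes tested, and the median was 0.42. Cox4i1, a subunit of cytochrome c oxidase, was at 1376 to 1898 in hippocampus and 784 to 1398 in whole brain (0.67 ± 0.13, limma adjusted p = 0.014), and Cox6a1 and Ndufa2 differed by 0.69 and 0.63. Of 49 cytosolic ribosomal protein genes, 7 were higher (14.3%, against 1.19% of all genes) and 0 lower, 40 had a positive difference and the median was 0.37. Rps20 was at 527 to 631 against 154 to 415 (1.20 ± 0.21, limma adjusted p = 0.006) and Rps24 at 705 to 1107 against 234 to 638 (1.06 ± 0.19, limma adjusted p = 0.008), both without overlap. Cox4i1 lost its call without the genotype term (limma adjusted p = 0.054) and with GC and length trends removed (0.37, adjusted p = 0.20). Cox6a1 and Ndufa2 each lost theirs without any 1 of 4 libraries, whole-brain Dicer-deficient 5 and 12 among them. Such genes have short transcripts, and the region difference ran with transcript GC content and length. Once both trends were removed, an alternative chosen after seeing the data, 3 members of each list were higher, with medians of 0.13 and 0.17.

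That trend held across all genes. The longest annotated transcripts of 96.7% of the tested genes were matched. Their median GC content was 49.7%, against 47.7% for genes higher and 55.3% for genes lower in hippocampus, and the median lengths were 3311, 2026 and 3604 bases. From the decile of genes with the lowest GC content to that with the highest, the median difference went from 0.20 to -0.25. Between the adult table described below and the whole-brain table, with no difference in the labelled region, it went from 0.10 to -0.28. In the lowest decile 17 genes were higher and 3 lower, and in the highest 9 were higher and 43 lower. With both trends removed 200 genes were called, 97 higher and 103 lower, and 175 of them were among the 302.

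**Figure D4:**
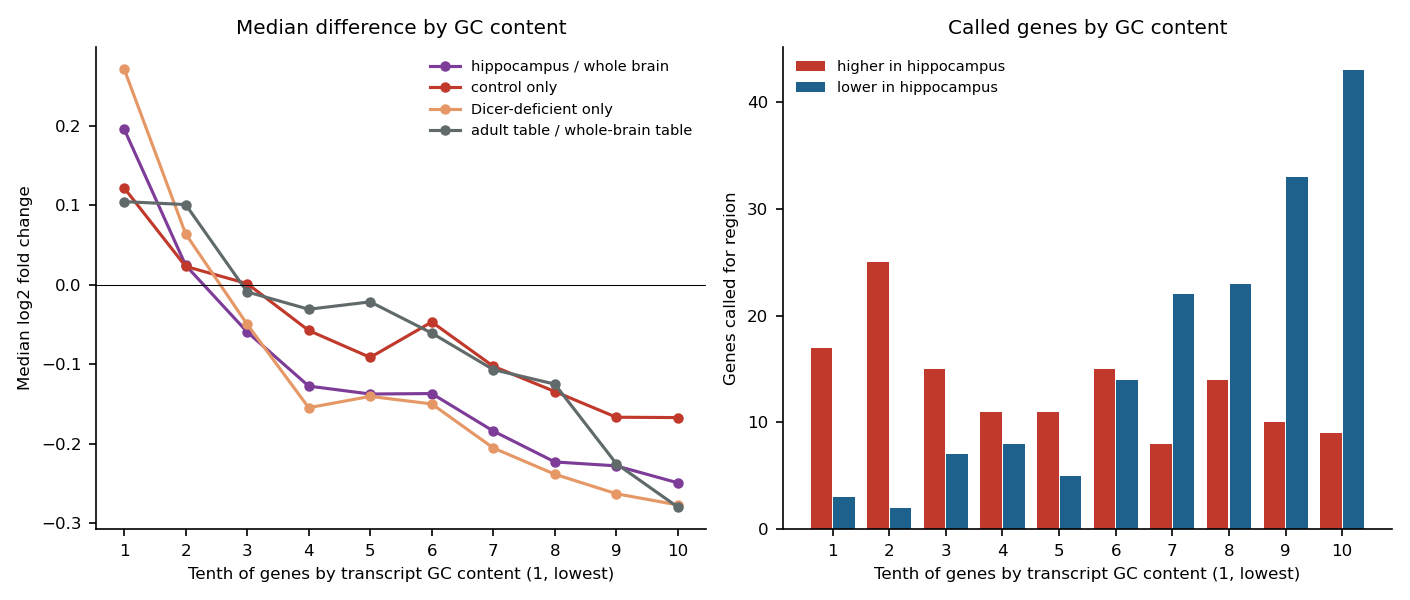
Left, median log2 difference in each decile of genes by transcript GC content, for the region comparison, for each genotype alone and for the adult table against the whole-brain table. Right, genes called higher (red) and lower (blue) in hippocampus per decile, from 17 and 3 in the first to 9 and 43 in the last.

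Within single genotypes fewer genes were called. In controls (2 against 3), 24 of 13090 genes were called (0.183%), 11 higher (0.084%) and 13 lower (0.0993%). In Dicer-deficient microglia (3 against 3), 172 of 12434 were called (1.38%), 76 higher (0.611%) and 96 lower (0.772%). Both tests came from 1 fit to all 11 libraries, with 1 mean per group and 1 spread per gene shared by all groups. Their SE and p-values therefore also rest on the libraries of the other genotype. With only the groups compared, 6 genes were called in controls, 3 of them among the 24. In Dicer-deficient microglia 13 were then called, all among the 172. The interaction, which asks whether the region difference depends on genotype, called Apoe alone of 13090 genes (0.00764%). Of the 302 genes called over both genotypes, 12 were called in controls, 99 in Dicer-deficient microglia and 8 in both, and the fit over both genotypes favours genes that differ the same way in each. H2-Ab1 was called in controls (2.43 ± 0.34, limma adjusted p = 0.012) and in Dicer-deficient microglia (3.06 ± 0.31, limma adjusted p = 0.00033). S100a8 (6.63 and 8.59), Gnb2 and Phc2 (-1.47 and -1.25) were also called in each. In controls, none of the 24 called genes stayed called without hippocampal control 2, where 1 other gene was called, or without whole-brain control 8 (2 others) or 9 (0 by limma, with 888 at an unadjusted p under 0.05). On the full set of libraries edgeR called 25 or 26 genes in controls and DESeq2 122. Across 8741 genes with a mean level of at least 20, the 2 region differences had a Pearson r of 0.31 and a Spearman rho of 0.29, and 62.1% had the same sign. These differences share no library but share the 2 tables, and genes are not independent replicates.

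**Figure D5:**
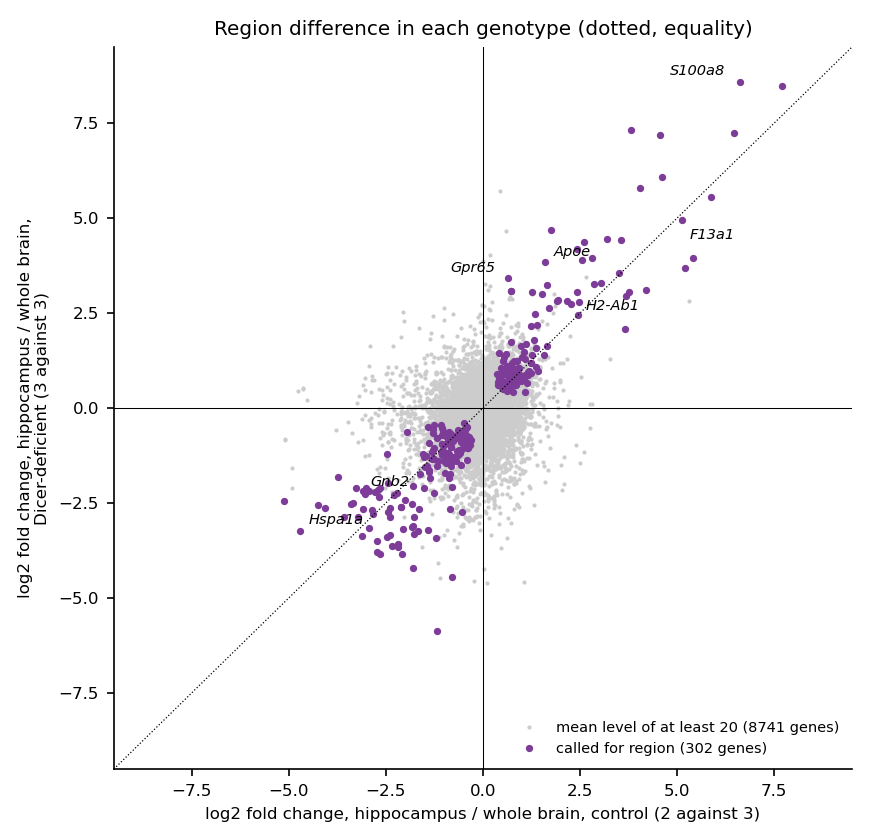
Log2 difference between hippocampal and whole-brain microglia in Dicer-deficient mice (vertical axis, 3 against 3 libraries) against that in controls (horizontal axis, 2 against 3), 1 point per gene; purple points are the 302 genes called over both genotypes and the dotted line is equality. Apoe lies above the line, at 1.61 in controls and 3.85 in Dicer-deficient microglia.

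How far 2 tables differed with no difference in the labelled region was measured with another table of 7 libraries of brain microglia from mice of the same 2 genotypes and age (4 controls and 3 Dicer-deficient), brought onto the scale of the 11 with factors of 2.17 to 2.43. Against the whole-brain table, 3076 of 11275 genes were called (27.3%), 9.41% higher and 17.9% lower in the adult table. Hippocampus against this adult table gave 3713 of 11524 (32.2%), 17% higher and 15.2% lower in hippocampus. These comparisons share libraries, so values are given side by side only. H2-Ab1 was at 25.2 to 278 in the adult table and differed from whole brain by -0.08, while hippocampus differed from it by 2.88. Gnb2 was at 545 to 1011, -0.18 from whole brain, and hippocampus was at -1.34 from it. Apoe was at 53.8 to 686, which was -2.16 from whole brain and left hippocampus 5.00 above. S100a8 was at 0 in all 7 adult libraries. For Lyz2 (266 to 820) and Hspa5 (1218 to 2410) the adult table reached the hippocampal levels, with hippocampus at 0.15 and 0.00 from it. Rps20 was listed at 0 in all 7 adult libraries. The summed level of the 49 ribosomal protein genes was 1202 to 1813 in the adult table, 17936 to 28499 in whole brain and 27102 to 33453 in hippocampus, and 43 of the 49 were lower in the adult table than in whole brain (median -4.59).

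The libraries from mice given LPS, the lipopolysaccharide of bacterial outer membranes, stand in the same 2 tables, 4 from hippocampus and 8 from whole brain, and share no library with the 11. They are given as a description, since the mice were treated and the table difference is shared. Of all genes tested, 42.6% had a positive difference there, and 122 (1.06%) did not overlap, 47 higher (0.407%) and 75 lower (0.649%). Of the 164 genes lower at steady state, 138 (84.1%) also had a negative difference after LPS, and 18 did not overlap. Of the 138 higher genes, 87 (63.0%) had a positive difference and 4 did not overlap. Gnb2 was at 264 to 559 in hippocampus and 615 to 1145 in whole brain after LPS, and Ctns at 7.89 to 76.2 against 96.9 to 178, both without overlap.

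The strongest higher genes did not separate after LPS. H2-Ab1 was at 66.9 to 479 in hippocampus and 68.3 to 481 in whole brain, and Apoe at 92.1 to 2098 against 157 to 1622. S100a8 was at 1.84 to 203 against 28.7 to 632, and Lyve1 at 0 in all 12 libraries. Of the 12 genes highest at steady state, 6 had a positive difference after LPS and 0 lay apart, while all 12 of the lowest had a negative difference and 2 lay apart. The summed neutrophil markers were 732 to 3496 in hippocampus and 729 to 5733 in whole brain after LPS, and the summed border macrophage markers 1301 to 2399 against 1060 to 2328. In these libraries both marker sums overlapped between regions, as did H2-Ab1 and Apoe. The border macrophage sum already overlapped at steady state (1714 to 2646 against 970 to 1820). So did the summed MHC class II list (23940 to 33614 against 20345 to 28987). Whether the marker sums and the MHC class II and Apoe levels are linked was not tested.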

How the data were processed

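RNA of sorted mouse microglia was measured by bulk RNA sequencing after oligo(dT) capture, per the labels' protocols. The deposited values are signal: each is a whole multiple of 1 step per library, and 100% of values in the 11 libraries came back whole within 0.1 step. In 4 of these libraries no gene stood at 1 step, and in 1 library none stood at 2 steps. Whether 1 step is 1 read is not known, and the read totals and count tests here take it to be so. Per the submitters' processing notes, bcl2fastq, HISAT 0.1.5, SAMtools, HOMER and DESeq2 were used with build mm9; their order, settings, gene annotation and the handling of molecular identifiers are not given in the sources used here. Recovered depth was 2244169 to 4143142 reads per library and limits the precision of genes with few reads.

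The 24421 gene symbols listed in both tables were joined. All 11 columns were rescaled together by median of ratios over the 8910 genes above 0 in every library. Because the tables hold normalized values, limma 3.58.1 (R 4.3.3), with a trended variance and genotype as covariate, was applied to log2(value + 1). A gene was tested where 5 libraries reached a value of 1 (2 for controls alone and the interaction, 3 for Dicer-deficient alone, 6 and 5 for the adult table comparisons), and p-values were adjusted over all of them by Benjamini-Hochberg. The procedure was tested on simulated data. The longest GENCODE transcript of each symbol gave GC content and length, and the RefSeq annotation and sequences (GRCm38.p6) gave promoters by symbol. No coordinate of the files' build was used.

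The comparison, the 40 gene lists and the tests were chosen with earlier results of these data known. Named genes are the 12 highest and 12 lowest called genes without overlap between regions and with a mean level not under the median, per list the 3 members (or fewer) of lowest p, 8 checks of identity and label (1 more is not reported here), and, for each genotype and the interaction, the 5 highest and 5 lowest called genes, filled up with those of smallest p. Unnamed gene models and sex-linked genes were left out of the rule, only part of the genes it gave are named, and other called list members named to complete a count were chosen after their values were seen.

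Alternatives were a pseudocount of 0.1 or 5, no filter or a mean of at least 20, edgeR 4.0.16 (TMM or RLE) and DESeq2 1.42.0 on the recovered reads, no genotype term, only the groups compared, a 2-fold minimum, values as deposited, and each library left out. Library weights and the removal of GC and length trends were added after seeing the data.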

Additional observations from a re-analysis of the deposited data

Results flagged for a closer look

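Apoe was the 1 gene called for a region difference that itself differed between genotypes, with Dicer-deficient minus control at 2.24 on the log2 scale. The call was lost without any 1 of 9 of the 11 libraries and in 4 other settings, while 10 genes, Apoe not among them, were called without hippocampal control 1 and 60 with DESeq2. In the adult table, which holds microglia labelled as from brain and serves only as another reference, 1 of the 4 controls lay far from the other 3 in 3 of 32 genes screened by Dixon's ratio. The lowest control stood apart for Gnb2, at 776 normalised reads, and for Tmem119, at 10589. The highest stood apart for Siglech, at 4077. Chance alone puts some groups past the critical value of that ratio, about 1 in 20, so 3 of 32 is a description of these libraries. No group of the 11 libraries compared held the 4 or more samples that the screen needs.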

How the results depend on the processing

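No paired analysis was possible because hippocampal and whole-brain groups of 1 genotype share at most the replicate number 5. In place of 302 genes, the region comparison called 189 and 187 with edgeR (TMM and RLE scaling), 701 with DESeq2, 134 without the genotype term, 164 at a minimum of 2-fold, 200 with GC and length trends removed, and 487 without hippocampal control 1 and whole-brain 11b together. With edgeR and RLE scaling the all-gene median went from -0.12 to -0.00 and the share of higher genes among calls from 45.7% to 57.8%. The median also moved with edgeR and TMM scaling (-0.05) and with DESeq2 (-0.01). With library weights 225 genes were called, 186 of them among the 302. The weights were 0.30 to 0.75 in hippocampus and 0.58 to 2.99 in whole brain, while the main fit weighted every library alike. With 1 library left out, 106 (whole-brain Dicer-deficient 5) to 459 (hippocampal control 1) were called, and leaving out whole-brain control 7, 8 or 9 or Dicer-deficient 12 also moved the count by over 1.5 times. The control comparison (24) gave 11 with a pseudocount of 0.1, 122 with DESeq2, 6 with only the groups compared and 0 to 101 with 1 library left out; at 0 calls, without whole-brain control 9, 888 genes had an unadjusted p under 0.05. The Dicer-deficient comparison (172) gave 557 with DESeq2, 13 with only the groups compared and 39 to 253 with 1 library left out. The interaction (1) gave 0 with limma with a pseudocount of 0.1 (878 genes at an unadjusted p under 0.05), without a filter (929), with library weights (869) and with GC and length trends removed (899), 60 with DESeq2, 1 with edgeR, and 0 to 10 with 1 library left out. With values as deposited, the adult table gave 7671 genes against whole brain and 8387 against hippocampus, where the scaling of the tables differs by construction. Of the 68 named genes called for region, 41 to 68 kept their call per setting and 0 reversed. A lone library left in a group is assumed to vary like the others. Counts near 0 limit low genes, and the cause of the other shifts was not tested.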
